A study of Mus musculus with 18 samples.

Results

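The genes described here encode peroxisomal proteins of mouse liver, in 4 roles: 12 enzymes of beta-oxidation, 10 other enzymes of the peroxisomal matrix, 4 membrane proteins that carry substrates or form pores, and 12 peroxins, which build the organelle. They were chosen as a list of 38 gene symbols, and their probes are those that carry one of these symbols as the gene name in the array files. Of the 38 symbols, 37 had a probe, with 43 probes in all, among 39429 non-control probes that name 31709 genes. The symbol Pex2 had none, which leaves 11 peroxins. A probe for Pex2 stands in the files under the older name Pxmp3 and is described separately.

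The livers came from male C57BL/6J mice of an inbred strain, and the RNA of each mouse was hybridised to an array of its own. After 5 weeks on a high-fat diet from the age of 8 weeks, mice were 13 weeks old. In 8 mice the fat was linseed oil, with 66.7% polyunsaturated fatty acids (alpha-linolenic acid, an n-3 fatty acid, made up 49.7%) and 9.7% saturated ones. In 10 mice it was palm oil, with 55.6% saturated and 8.8% polyunsaturated fatty acids. Both diets gave 51.1% of energy as lipid, so each group is a model of high-fat feeding, and no diet low in fat was analysed here. The comparison asks how liver expression differs with the kind of fat.

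Peroxisomes are small organelles bounded by a single membrane that shorten very long-chain, branched and polyunsaturated fatty acids by beta-oxidation and break down the hydrogen peroxide this makes. Each round runs through an acyl-CoA oxidase, a multifunctional enzyme that hydrates and dehydrogenates, and a thiolase. Double bonds need auxiliary isomerases and reductases. Peroxins insert membrane proteins, import enzymes made in the cytosol and divide the organelle. In rodent liver, many of the enzymes and the division factor Pex11a are known targets of PPARalpha, a nuclear receptor activated by fatty acids.

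Each value is the signal of 60-base probes, so the probes behind the main results are shown first. Acaa1a and Acaa1b are closely related thiolase genes, and their probes must tell them apart; the first 30 bases of each are printed with those of the Ehhadh probe. The whole probe is printed for Ech1, for the dimmer of the 2 probes of Cat and for Pex11a, the peroxin with the largest difference. All are read 5′ to 3′ on the transcript's strand, in lower case, at mm9 coordinates of the whole probe as the array files give them.
Ehhadh, chr16:21761914-21761973, minus strand: atggccagatttcaggaatgtgttttctat
Acaa1a, chr9:119259353-119259412, plus strand: ccctggttgcaaagccatttgtacctttga
Acaa1b, chr9:119057326-119057385, minus strand: tctgcgtgggacactcagcagtggaggagt
Ech1, chr7:29616256-29616416, plus strand: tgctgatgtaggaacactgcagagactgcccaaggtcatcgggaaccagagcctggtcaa
Cat, chr2:103297086-103300428, minus strand: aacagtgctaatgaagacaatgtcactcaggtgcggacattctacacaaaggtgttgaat
Pex11a, chr7:86882223-86882282, minus strand: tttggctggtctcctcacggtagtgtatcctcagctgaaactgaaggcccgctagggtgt
The longest run of bases that the whole probes of Acaa1a and Acaa1b share is 6, and their best overlap without gaps matches at 19 of 35 bases. Whether either probe also takes up the other's transcript was not tested. The Ech1 probe covers 161 bases of the genome and the Cat probe 3343, so both cross an intron.

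Values are log2 signals relative to the 75th percentile of the same array, and a difference is linseed minus palm on that scale, ± SE from limma. A gene was called when its p, adjusted by Benjamini-Hochberg over all genes tested, was under 0.05. Of the 37 genes, 35 were well above background on all 18 arrays and Abcd2 on 17. The 2-hydroxyacid oxidase gene Hao2 was not well above background on any array, and no probe was saturated. The image software marked spots of some bright probes as uneven or outlying, and with those left out 27 of the 37 genes kept enough arrays for the test. The 9 lost in this way were Acox2, Hsd17b4, Acaa1a, Scp2, Crot, Pecr, Phyh, Hacl1 and Agxt. With marked spots kept, 36 genes were tested. Values are those with marked spots left out unless the sentence or its paragraph says that they were kept.

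Genes of peroxisomal beta-oxidation carried the calls. With marked spots left out, 3 of the 27 tested genes rose on linseed oil (Ehhadh, Acaa1b and Ech1) and 0 fell, where 0.57% of all 15951 genes tested were called higher and 0.188% lower. With marked spots kept, 4 of 36 rose, now including Hsd17b4, and 0 fell, where 0.683% of 16544 genes were called higher and 0.218% lower. All 4 are enzymes of beta-oxidation. The count of 4 ran from 2 to 5 when 1 array was left out: it was 2 without linseed mouse 2, 3, 5 or 7 or palm mouse 1, 5 or 6, and 5 without linseed mouse 8. None of the other matrix enzymes, membrane proteins or peroxins was called in either fit; by limma with an unadjusted p under 0.05, 1 matrix enzyme, 0 membrane proteins and 4 peroxins were higher and none was lower in each fit, against 6.01% of all genes higher and 4.15% lower with marked spots left out, and 6.33% and 4.27% with them kept. That matrix enzyme was Ephx2 with marked spots left out and Hacl1 with them kept. With slide as a fixed block, the same 3 of 27 rose and 0 fell, where 0.583% of all genes were called higher and 0.238% lower. The list was put together with results of these arrays known, so its counts are a description.

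Ehhadh encodes the bifunctional enzyme that hydrates and dehydrogenates straight-chain acyl-CoAs, the middle steps of the cycle. Its values in the 10 palm mice ran from 2.73 to 3.53 with a median of 3.05, and in the 8 linseed mice from 3.47 to 4.47 with a median of 3.89. The groups overlapped at their edges: linseed mice 2 (3.51) and 8 (3.47) were below palm mouse 8 (3.53), and every other linseed mouse was above every palm mouse. Ehhadh rose 1.78-fold on linseed oil (0.83 ± 0.14, limma adjusted p = 0.00446). Within the 5 slides, its difference was 0.57 to 0.98. Each slide held both diets, but slide 1 is made up of the arrays whose headers gave no barcode, and that they shared a slide is an assumption.

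Acaa1b encodes a thiolase, which cleaves off the 2-carbon unit at the end of the cycle. With marked spots left out, its values ran from 5.82 to 6.49 (median 6.19) in 8 palm mice and from 6.69 to 7.24 (median 6.86) in 7 linseed mice. These did not overlap, which held for 0.157% of all genes in that direction. Acaa1b rose 1.70-fold (0.76 ± 0.11, limma adjusted p = 0.00438). The spots left out were those of linseed mouse 8 and palm mice 7 and 9; with them kept, the lowest linseed value and the highest palm value were both 6.52, so the groups met, and the rise was 1.59-fold (0.67 ± 0.11, limma adjusted p = 0.00561).

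Ech1 encodes a dienoyl-CoA isomerase that moves double bonds so that unsaturated chains can be shortened, and it is found in both peroxisomes and mitochondria. Palm values ran from 4.38 to 4.99 (median 4.81, n = 10 mice) and linseed values from 4.94 to 5.67 (median 5.35, n = 6 mice), with linseed mouse 1 inside the palm range. Ech1 rose 1.51-fold (0.60 ± 0.12, limma adjusted p = 0.0271), and 1.45-fold with the 2 marked linseed spots kept (0.54 ± 0.11, limma adjusted p = 0.0298). The difference within slides, with marked spots kept, ran from 0.017 to 1.01. Its call was lost when linseed mouse 3, 5 or 7 was left out (differences of 0.53, 0.56 and 0.58, limma adjusted p = 0.0671, 0.0677 and 0.0636).

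Hsd17b4 encodes the second multifunctional enzyme, which handles branched chains and very long-chain fatty acids. Its spot was marked on 3 linseed and 4 palm arrays, so it was tested only with marked spots kept (8 linseed and 10 palm mice). Palm values then ran from 5.74 to 6.12 (median 5.91) and linseed values from 6.00 to 6.42 (median 6.23), so that the groups overlapped. Hsd17b4 rose 1.23-fold (0.30 ± 0.07, limma adjusted p = 0.0375). This call lay near the threshold: it was kept in 3 of the 18 fits that each left out 1 array (differences of 0.27 to 0.33, limma adjusted p = 0.0199 to 0.0883), those without linseed mouse 8, palm mouse 4 or palm mouse 7. It also ended with slide as a fixed block (0.29 ± 0.07, limma adjusted p = 0.0516) and in the authors' value table (0.31 ± 0.08, limma adjusted p = 0.0892).

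**Figure D1:**
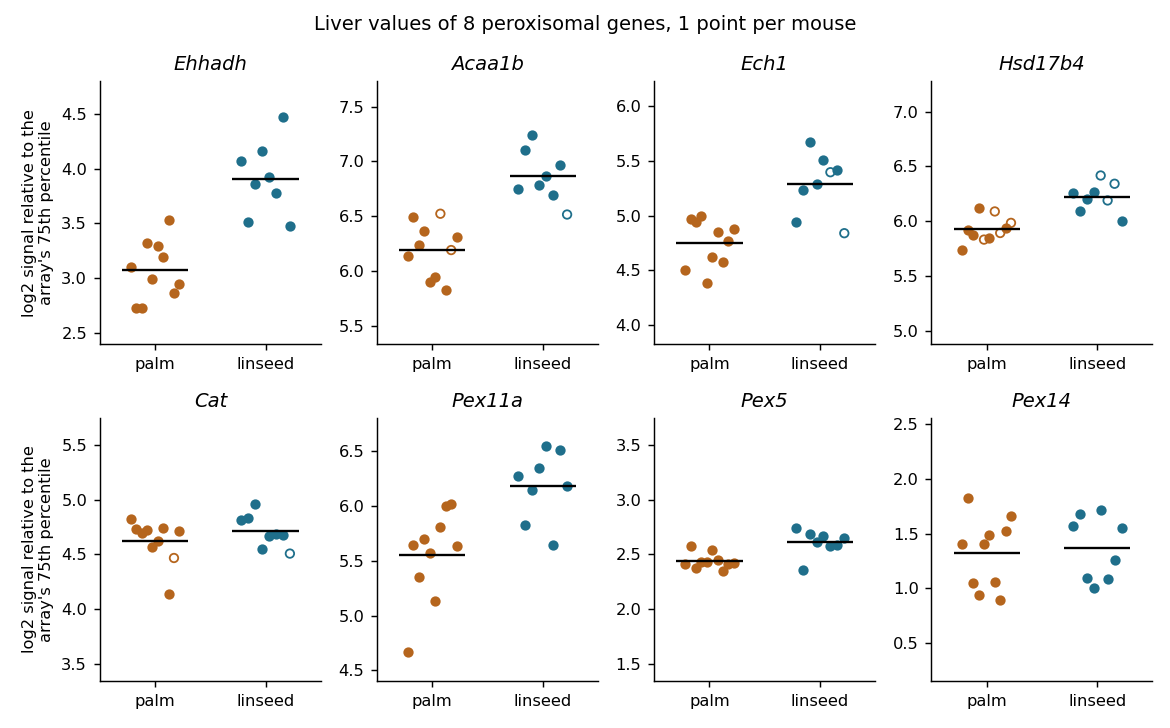
Log2 signal relative to each array's 75th percentile for 8 genes, 1 point per mouse (10 on palm oil, brown; 8 on linseed oil, blue); open points are marked spots, lines are group means, and all panels span the same number of log2 units. The linseed mice lie mostly above the palm mice for Ehhadh, Acaa1b, Ech1 and Hsd17b4, while the groups of Cat and Pex14 lie over each other.

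The other 8 beta-oxidation enzymes did not pass. Decr2, a dienoyl-CoA reductase that removes double bonds, differed by 0.51 ± 0.14 (limma adjusted p = 0.184, n = 6 and 6 mice) and by 0.43 ± 0.11 with marked spots kept (limma adjusted p = 0.0763). Crot, which attaches carnitine to shortened chains for export to mitochondria, differed by 0.52 ± 0.15 with marked spots kept (limma adjusted p = 0.162). Its linseed value in mouse 8, a marked spot, was 4.40 where the other 7 were 5.10 to 5.58. Without that mouse the difference in Crot was 0.63 (limma adjusted p = 0.0236), and without palm mouse 3 that in Decr2 was 0.47 (limma adjusted p = 0.0479); both then passed.

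Acaa1a, the other thiolase gene, differed by 0.29 ± 0.10 with marked spots kept (1.22-fold, limma adjusted p = 0.262). Palm values ran from 6.75 to 7.33 (median 7.17) and linseed values from 7.07 to 7.79 (median 7.32), so the groups overlapped over much of their range. The 95% intervals of the thiolase pair, 0.44 to 0.90 for Acaa1b and 0.078 to 0.50 for Acaa1a, also overlapped, and the difference between the 2 genes was not tested. Acox2 (0.19 ± 0.12), an oxidase of branched and bile acid side chains, Scp2 (0.15 ± 0.08 by its brighter probe), a thiolase and sterol carrier, and Pecr (0.10 ± 0.09), a trans-2-enoyl-CoA reductase, had smaller positive values with marked spots kept. The dimmer probe of Scp2 was then at 0.044 ± 0.06 (limma adjusted p = 0.845). The racemase gene Amacr, which prepares branched chains for oxidation, was at −0.03 ± 0.07. Acox3, another oxidase of branched chains, was at −0.09 ± 0.20 by its brighter probe and at −0.19 ± 0.07 by its dimmer one (limma adjusted p = 0.29). The sign of the former turned with slide as a fixed block (0.019).

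Over the 12 beta-oxidation enzymes with marked spots kept, the median difference was 0.29 and 10 of 12 were positive, where the median of all genes was −0.0017 and 49.4% were positive. With marked spots left out only 6 of the 12 were tested and their median was 0.55, so the value depended on which enzymes had a usable spot.

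The enzymes of other matrix pathways differed less. With marked spots kept, the median of 9 was 0.088 and none was called. Of the 9, 7 were positive, against 49.4% of all genes. Cat, catalase, which breaks down hydrogen peroxide, had palm values of 4.14 to 4.83 (median 4.71, n = 9 mice) and linseed values of 4.55 to 4.96 (median 4.68, n = 7 mice). The medians lay side by side and the groups overlapped (0.10 ± 0.09, limma adjusted p = 0.788). Its other probe, whose sequence is given above, was at 0.21 ± 0.09 (limma adjusted p = 0.383).

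Hacl1, a lyase of the alpha-oxidation pathway that removes 1 carbon from branched chains, had the smallest p of this role with marked spots kept. Its palm values were 4.67 to 5.15 (median 4.83) and its linseed values 4.72 to 5.66 (median 5.21), and they overlapped (0.32 ± 0.11, limma adjusted p = 0.252). Phyh, the hydroxylase of the same pathway, differed by 0.058 ± 0.07 with marked spots kept; every palm spot was marked. Ephx2, soluble epoxide hydrolase, which opens epoxides of polyunsaturated fatty acids, differed by 0.24 ± 0.11 (limma adjusted p = 0.49). Its palm values were 5.63 to 6.17 (median 5.91, n = 6 mice) and its linseed values 5.93 to 6.48 (median 6.13, n = 7 mice). With marked spots kept, Ephx2 differed by 0.18 ± 0.10 (limma adjusted p = 0.556), and its palm values reached 6.30.

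The remaining matrix enzymes tested had 95% intervals that included 0. Idh1, an NADP-dependent isocitrate dehydrogenase of cytosol and peroxisomes, differed by 0.18 ± 0.11. With slide as a fixed block it differed by 0.23 ± 0.09, with an interval above 0 (0.039 to 0.42), and did not pass (limma adjusted p = 0.287). Agxt, which detoxifies glyoxylate, differed by 0.20 ± 0.15 with marked spots kept. The pair of enzymes that start ether lipid synthesis, Gnpat (0.069 ± 0.05) and Agps (−0.015 ± 0.07), and the glycolate oxidase Hao1 (−0.024 ± 0.09) had differences smaller than their intervals could tell from 0; the signs of Agps and Hao1 turned with normexp background correction (0.016 and 0.030).

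None of the 4 membrane proteins was called. Abcd3, an ABC transporter that brings branched and long-chain acyl-CoAs into the organelle, had palm values of 5.91 to 6.45 (median 6.24, n = 10 mice) and linseed values of 6.19 to 6.52 (median 6.32, n = 6 mice). The ranges overlapped (0.14 ± 0.09, limma adjusted p = 0.65). Abcd2, a related transporter of very long-chain acyl-CoAs, had the smallest p of this role with marked spots left out. Its palm values ran from −3.99 to −1.56 (median −3.09) and its linseed values from −3.29 to −2.19 (median −2.39), so that the palm mice enclosed the linseed mice (0.49 ± 0.28, limma adjusted p = 0.598). Its difference was 0.11 with normexp background correction and 0.18 in the authors' value table. The pore protein Pxmp2 (−0.11 ± 0.10) and the membrane protein Pxmp4 (0.17 ± 0.12) had opposite signs.

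**Figure D2:**
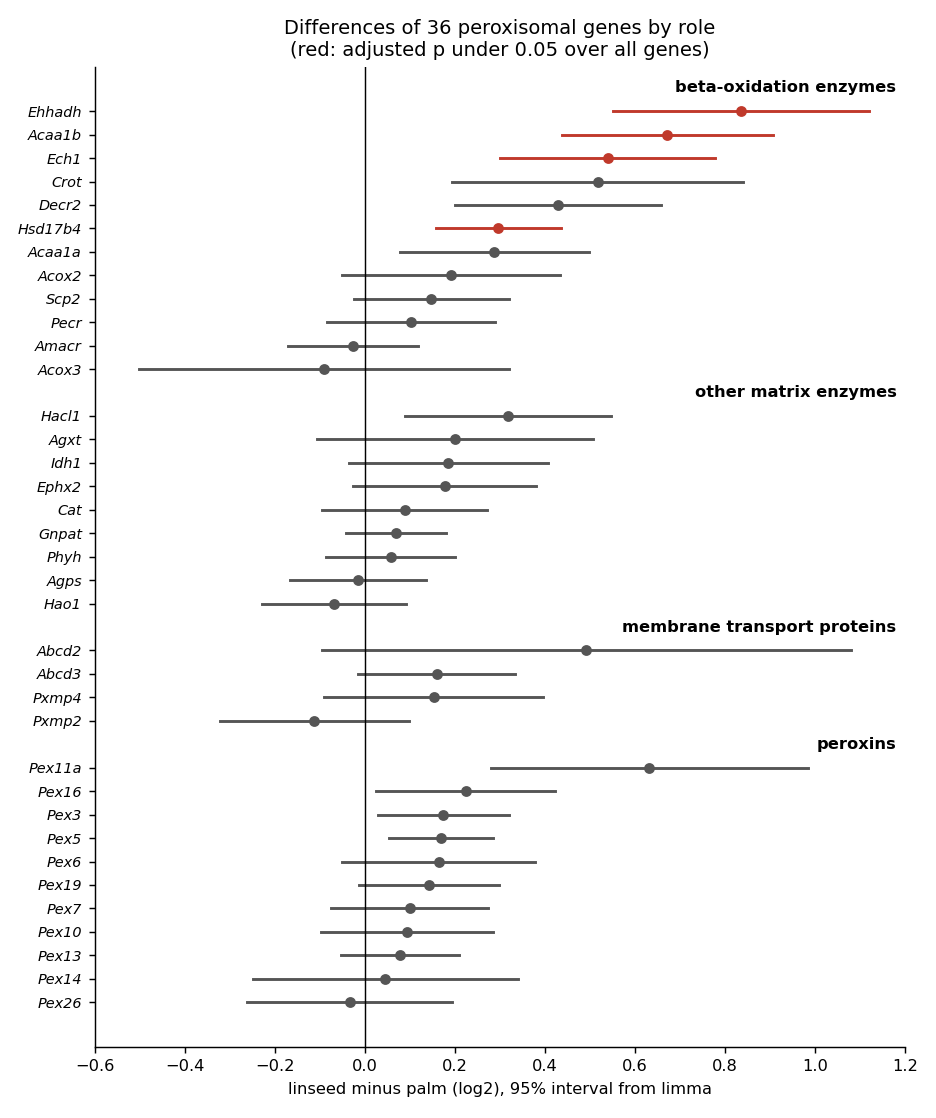
Linseed minus palm on the log2 scale for the 36 genes tested with marked spots kept, by role, with 95% intervals from limma. The 4 genes with an adjusted p under 0.05 over all genes (red) are beta-oxidation enzymes; Pex11a stands to the right of the other peroxins.

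None of the 11 peroxins was called by limma, while 4 were higher with an unadjusted p under 0.05: Pex11a, Pex5, Pex3 and Pex16. Of all genes, 6.01% were higher at that level. The median difference of the 11 peroxins was 0.14, and 0.12 without Pex11a, where that of all genes was −0.0038. Of the 11 peroxins, 10 were positive, against 48.7% of all genes. Apart from Pex11a, the peroxins ran from −0.034 (Pex26) to 0.22 (Pex16).

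Pex11a, which elongates the peroxisomal membrane before division, had the largest value of the peroxins. Its palm values ran from 4.66 to 6.04 (median 5.64) and its linseed values from 5.67 to 6.56 (median 6.24), and the ranges shared a wide stretch. The difference was 0.63 ± 0.17 (1.55-fold, 95% interval 0.28 to 0.99, limma adjusted p = 0.1), of a size like that of Ech1 but with a larger error. It was positive within each of the 5 slides, at 0.17 to 1.19 with marked spots kept, and did not pass in any of the 18 fits without 1 array (0.53 to 0.71, limma adjusted p = 0.0578 to 0.214). Its relative Pex11g, which shares the membrane-shaping role, did not pass (0.070 ± 0.11, limma adjusted p = 0.888).

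Pex5, the receptor that carries enzymes with a C-terminal targeting signal into the organelle, had the next smallest p. Palm values lay between 2.35 and 2.57 (median 2.42) and linseed values between 2.36 and 2.74 (median 2.63). A single linseed mouse, number 2 at 2.36, lay near the bottom of the palm range, and the other 7 were at 2.58 or above, higher than every palm mouse. The difference was 0.17 ± 0.06 and did not pass (limma adjusted p = 0.241). Without linseed mouse 2, with marked spots kept, it was 0.21 and did not pass either (limma adjusted p = 0.0805). Pex7, the receptor for a second, N-terminal signal, differed by 0.074 ± 0.09 (limma adjusted p = 0.841).

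Pex14, the docking protein of the import pore, had palm values of 0.89 to 1.82 and linseed values of 1.00 to 1.71, with a median of 1.41 in both diets. Its difference was 0.045 ± 0.14 (limma adjusted p = 0.951). It was 0.096 ± 0.07 with slide as a fixed block (limma adjusted p = 0.587), and the sign turned with array quality weights (−0.040). Pex13, the other docking protein, was at 0.078 ± 0.06, and the ubiquitin ligase subunit Pex10 at 0.094 ± 0.09. Pex6, an ATPase that recycles the receptor, was at 0.16 ± 0.10 by its brighter probe and at −0.0022 ± 0.09 by its dimmer one. Pex26, its membrane anchor, was at −0.034 ± 0.11, a sign that turned with normexp (0.0091).

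The 3 peroxins that insert membrane proteins had small positive values. Pex19, the soluble chaperone of membrane proteins, had palm values of 1.84 to 2.29 (median 2.11) and linseed values of 2.02 to 2.38 (median 2.28). The ranges overlapped (0.14 ± 0.07, limma adjusted p = 0.555). Pex3, its docking site, differed by 0.17 ± 0.07 (limma adjusted p = 0.376) and Pex16, which recruits Pex3, by 0.22 ± 0.10 (limma adjusted p = 0.415). The probe of Pex2 under its older name, a ubiquitin ligase subunit and partner of Pex10, was at −0.10 ± 0.06 (limma adjusted p = 0.606).

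Set side by side, 2 enzymes stood clear of the import and assembly genes. With marked spots kept, the 95% intervals of Ehhadh (0.55 to 1.12) and Acaa1b (0.44 to 0.90) lay wholly above those of 10 of 11 peroxins, all but Pex11a. The interval of Ech1 (0.30 to 0.78) lay above 6 of them, and those of Decr2 and Crot above 1 each. That of Hsd17b4 (0.16 to 0.44) lay above none. No test of the difference between roles was made, since the roles were assigned by hand and their genes share the same mice.

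To show the roles mouse by mouse, each gene's values were centred on the midpoint of its diet means and averaged over the genes of a role, with marked spots kept. The beta-oxidation mean ran from −0.33 to −0.0030 in palm mice and from −0.049 to 0.37 in linseed mice. The overlap came from linseed mouse 8, at −0.049; the other 7 linseed mice were at 0.094 or above. That mouse had the lowest linseed value of Ehhadh, Acaa1b, Ech1, Hsd17b4 and Crot, and it was the only linseed mouse on slide 5. The mean of all 11 peroxins ran from −0.20 to −0.0068 in palm mice and from −0.015 to 0.18 in linseed mice. Its overlap came from linseed mouse 2, at −0.015, and the other 7 linseed mice were at 0.043 or above. Its diet means were −0.081 in palm and 0.081 in linseed mice (SD 0.071 and 0.058), against −0.16 and 0.16 (SD 0.12 and 0.14) in beta-oxidation. Without Pex11a, the mean of 10 peroxins ran from −0.23 to 0.015 in palm mice and from −0.012 to 0.12 in linseed mice. Within slides, the beta-oxidation mean was higher on linseed oil in 5 of 5, by 0.59, 0.28, 0.31, 0.38 and 0.042 on slides 1 to 5; the largest of these is that of slide 1, whose arrays are only assumed to share a slide. The mean of all 11 peroxins was higher by 0.30, 0.12, 0.19, 0.18 and 0.056, and that without Pex11a by 0.21, 0.037, 0.14, 0.18 and 0.027.

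**Figure D3:**
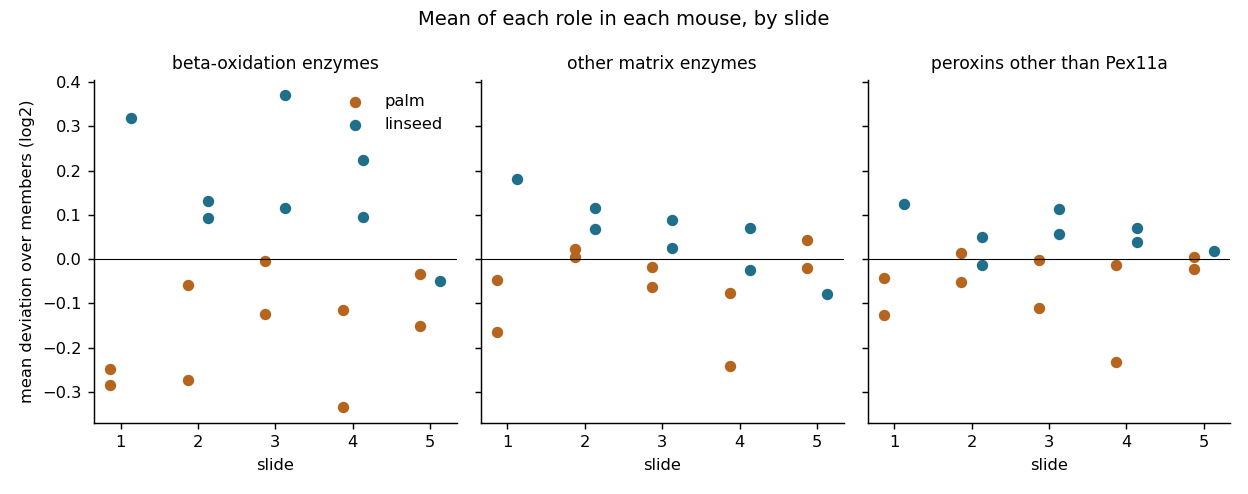
Mean deviation over the genes of a role in each mouse (log2), by slide, for 12 beta-oxidation enzymes, 9 other matrix enzymes and 10 peroxins other than Pex11a. Each slide holds both diets, and the linseed mouse of slide 5 is the only one that lies among its palm mice in beta-oxidation.

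Small positive differences were also seen outside these genes. Hepatocyte markers were positive for 8 of 8 genes with marked spots kept, with a median of 0.15 and none called; their summed linear level was 1736 to 2965 times the percentile in linseed mice and 1848 to 2592 in palm mice. In a liver sample, fewer cells of a type and less RNA per cell cannot be told apart. Of the 1654 brightest genes of all, 63.7% were positive with a median of 0.032, and 17 of the 36 genes described here, 1 of them a peroxin, are among them. Of the next 1654 by brightness, with 3 peroxins, 64.1% were positive with a median of 0.036, and of the 1655 after those, with 5 peroxins, 56.7% with a median of 0.022. The part of the hepatocyte markers or of brightness in the small differences of peroxins and matrix enzymes was not tested. Kupffer cell (6 tested, median −0.15), endothelial (4, −0.033) and stellate cell markers (5, −0.16) had no called gene. Of the 5 adipocyte markers only Cfd could be tested (2.54 ± 0.88, limma adjusted p = 0.278). The linear level of Cfd alone was 1.79 to 36.1 times the percentile in linseed mice and 0.12 to 10.1 in palm mice.

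A further 48 peroxisomal genes were read from the same fit. Of 38 tested, 4 rose and 0 fell, where 0.57% of all genes were called higher and 0.188% lower. Their median was 0.044. The thioesterases Acot3, Acot4 and Acot5 split acyl-CoAs into free acids and coenzyme A. Acot3 rose 3.76-fold (1.91 ± 0.31, limma adjusted p = 0.0044), Acot4 1.68-fold (0.75 ± 0.13, limma adjusted p = 0.00948) and Acot5 2.61-fold (1.38 ± 0.29, limma adjusted p = 0.032). Dhrs4, a carbonyl reductase, rose 1.41-fold (0.50 ± 0.10, limma adjusted p = 0.032). The protease Lonp2, which clears matrix proteins, did not pass (0.24 ± 0.12, limma adjusted p = 0.542).

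**Figure D4:**
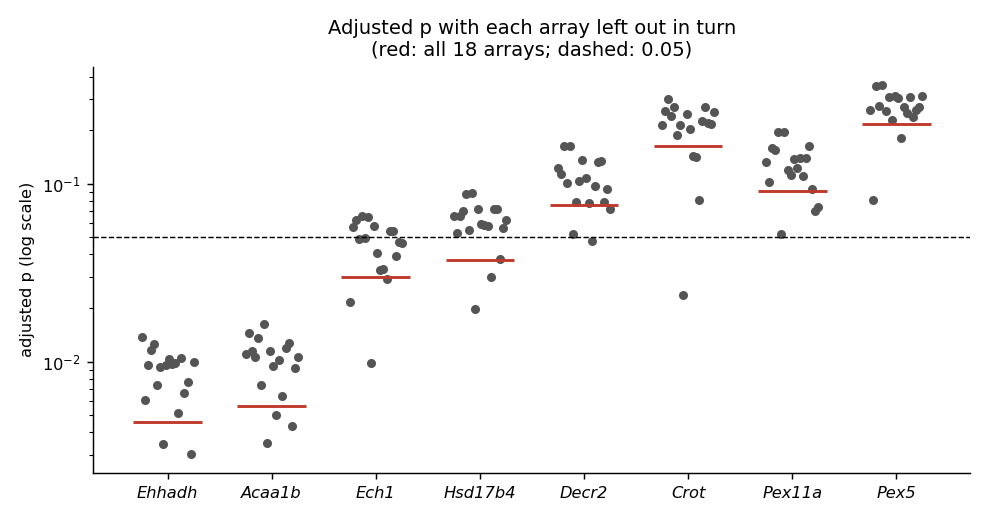
Adjusted p over all genes (log axis) for 8 genes with each of the 18 arrays left out in turn, marked spots kept (grey points), and with all arrays (red lines); the dashed line is 0.05. Ehhadh and Acaa1b stay below the line in all 18 fits and Ech1 in 11, Hsd17b4 in 3, while Decr2 and Crot each cross it once.

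Promoter windows were searched for the direct repeat that PPARalpha binds together with its partner RXR, the letters AGGTCA written out again after 1 free base, on both strands with at most 2 mismatches. Windows of 300 bases (250 before the start and 50 after) were at hand for 31 of the 38 symbols in the RefSeq table of GRCm38.p6. A match stood in 2 of the 31, Cat and Acox2, and in 4.40% of all 27025 genes of the table. That of Acox2 lies past the start. That of Cat ends 192 bases before the start and is shown in capitals with 20 bases on each side, since it is the only match upstream of a gene described here.
Cat, GRCm38.p6 chr2:103485325-103485377, minus strand: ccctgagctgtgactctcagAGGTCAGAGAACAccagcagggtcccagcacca
No match was found in the windows of Ehhadh, Acaa1b, Ech1 or Pex11a, which says only that these letters are not within them. A match is a description of sequence and not a binding site.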

How the data were processed

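Liver RNA (1 µg, Cy3) of 18 mice was hybridised to 1-colour arrays, per the labels' protocols. Per the file headers, the authors extracted the spot intensity values with Agilent Feature Extraction 9.5.3.1; the submitters' processing notes name version 9.5 and limma. A table that the authors deposited gives log2 values for 18060 probes, with scaling and filters not given in the sources used here; it served as an alternative only.

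The processed signal was divided by the 75th percentile of its array's non-control spots (117 to 204 intensity units) and log2 taken. Marked spots (238 to 1703 per array) were left out, and spots of a probe averaged. A probe was kept if well above background on at least 8 arrays (17258 to 22445 probes per array were) with at least 6 values per diet, and each gene was read from its brightest kept probe. Other probes were named through RefSeq GRCm38.p6, used for names and promoters only. The test of diet was two-sided, without covariates, by lmFit and eBayes of limma 3.58.1 (R 4.3.3). Precision is limited by how many arrays there are and by signal over background. The procedure was tested on simulated data. Slides (5) were read from the header barcodes, and arrays of the same slide shared a scan date. Slide 1 is the arrays with no barcode in the headers, which may not share a slide. Values within it and blocked by slide rest on the assumption that they do.

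The genes and lists were chosen with earlier results of these data known. Every listed gene is named; group values are given for called genes, the smallest p of each role and 6 central genes (Cat, Hsd17b4, Abcd3, Pex5, Pex14, Pex19). Acaa1a was added after its values were seen. Of the 8 pairs of mice with the same number in both diets, 5 deviated together (correlation over 0.1) and the others did not (range −0.24 to 0.50); since not every pair did, and the labels tie numbers to nothing shared, numbers were not used as pairs. The mice of these 5 pairs were on the same slide, as were those of pair 7 (correlation 0.094). Protein sequences were not used here, and some genes of the further peroxisomal list are not reported here.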

Additional observations from a re-analysis of the deposited data

Results flagged for a closer look

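In 74 groups of mice, each the values of 1 gene in 1 diet, the highest or lowest value was set against Dixon's limit; chance flags about 1 group in 20, and 6 were flagged. Of these, 5 were single low values. Crot in linseed mouse 8 was at 4.40, a marked spot, where the other linseed mice were at 5.10 to 5.58. Cat in palm mouse 8 was at 4.14, where the others were at 4.57 to 4.83. Abcd2 in linseed mouse 7 was at −3.29, where the others were at −2.68 to −2.19. Pex5 in linseed mouse 2 was at 2.36, where the others were at 2.58 to 2.74. Pex10 in linseed mouse 1 was at −2.40, where the others were at −2.10 to −1.89. Pex16 in linseed mouse 3 was the single high value, at 4.38, where the others were at 3.79 to 4.03. No mouse was flagged for more than 1 gene.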

How the results depend on the processing

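Ehhadh and Acaa1b kept their calls in 32 of 33 other settings each and Ech1 in 27 of 33. Another setting took the replicate number as a block and left out palm mice 9 and 10, whose numbers no linseed mouse has. Of 8 pairs of the same number 5 correlated over 0.1, and 2 of 8 mice correlated best with their own number. In this fit, 18 genes and 0 of the genes described here passed (Ehhadh 0.79, adjusted p = 0.0804; Acaa1b 0.73, adjusted p = 0.0693; Ech1 0.57, adjusted p = 0.183; limma). The effect of the block was not separated from that of leaving out these mice. Ech1 was also lost with the percentile over unmarked spots (0.49) and with no filter on dim probes (0.60). Against 121 called genes in all, there were 68 with normexp, 42 with the percentile over unmarked spots, 44 with no filter, 200 with slide as a random block, and 186 with marked spots kept and slide as a fixed block, an alternative chosen after the data had been seen, as was leaving out arrays with marked spots kept. Leaving out 1 array gave 51 to 143 called genes, 2 to 3 called genes of the list, and 2 to 4 of the further peroxisomal genes. The last count was 1 with the percentile over unmarked spots, 2 with no filter and 2 with the replicate block.

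The median of beta-oxidation enzymes, 0.55 on 6 genes, was 0.29 with marked spots kept, 0.28 with slide as a block too and 0.28 in the authors' values, each over 12 genes. For the 6 genes, with marked spots kept, it was 0.82, 0.41, 0.42 and 0.17 within slides 1, 2, 3 and 5. Within slides, also with marked spots kept, the other matrix enzymes were at −0.073 (slide 5) and the membrane proteins at −0.019 (slide 2). The peroxins were then at 0.24, 0.057 and 0.24 (slides 1 to 3). Signs turned for uncalled genes near 0: Hao1 0.030, Agps 0.016 and Pex26 0.0091 with normexp, Acox3 0.019 with slide as a fixed block (with marked spots left out or kept), Agps 0.00032 with the replicate block and 0.012 in the authors' values, and Pex14 −0.040 with array weights. With 1 array left out, Acox3 ran from −0.21 to 0.015, Agps from −0.048 to 0.018, Hao1 from −0.062 to 0.016, Pex14 from −0.0039 to 0.10 and Pex26 from −0.080 to 0.023. The cause of these changes was not tested. Marked spots limit the bright enzymes and dim signal limits Hao2.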
